A study of Mus musculus with 16 samples.

Results

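The genes of the mitochondrial respiratory chain and of ATP synthase that are encoded in the nucleus were followed in mouse two-cell embryos. Members were picked by gene symbol under a rule that used no measured value, although they were proposed with earlier results of these data known. A probe set belonged where the platform annotation gave it 1 symbol and that symbol began with Nduf, Uqcr, Atp5, Cox4, Cox5, Cox6, Cox7 or Cox8, or was Sdha, Sdhb, Sdhc, Sdhd or Cyc1. This gave 180 probe sets for 91 genes, of 45037 probe sets and 18193 genes with 1 symbol on the array. After a filter on low intensity, 167 probe sets and 89 genes were tested, with 40 of the 91 genes read by 1 probe set and 51 by several. Cox7b2 and Cox8b did not pass the filter, and 10 probe sets that listed several symbols were left out. The tested genes comprised 42 of complex I, of which 6 were core subunits, 28 accessory subunits and 8 assembly factors, 4 of complex II, 9 of complex III, 17 of complex IV and 17 of complex V. Ndufa4 and Ndufa4l2, named for complex I, were counted with complex IV, where their products are now placed.

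Total RNA of two-cell embryos was hybridized to 16 one-colour oligonucleotide arrays, 4 for each of 4 groups. In all groups the paternal pronucleus and the ooplasm came from strain B6. BBB embryos also had a B6 maternal pronucleus, whereas BCB embryos had a C3H maternal pronucleus, and both kinds were studied with and without α-amantin (so spelled in the labels for α-amanitin, which blocks RNA polymerase II). The number of embryos per array, the dose, the age of the embryos in hours and the way in which pronuclei were combined are not given in the labels. The labels also do not say whether the 4 arrays of a group came from separate collections of embryos, so p-values measure the spread between these samples, which may be technical.

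The respiratory chain passes electrons from NADH, at complex I, and from succinate, at complex II, through coenzyme Q, complex III and cytochrome c to oxygen at complex IV, and complexes I, III and IV pump protons across the inner mitochondrial membrane. ATP synthase, complex V, lets the protons flow back through its Fo rotor and makes ATP in its F1 head. The mammalian egg carries a large store of mitochondria and of maternal transcripts into the embryo, and in the mouse the main wave of embryonic transcription begins at the two-cell stage, so that a two-cell embryo holds both inherited and newly made RNA.

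Stretches of 7 promoters are printed because the genes behind them went opposite ways within 1 complex or 1 isoform family on the deposited scale. They are Atp5g1, Atp5g2 and Atp5g3, which encode the same subunit of the ATP synthase rotor, Cox6b1 and Cox6b2, which encode the somatic and the testis form of 1 cytochrome c oxidase subunit, and Ndufaf4 and Ndufaf5, both assembly factors of complex I. Each stretch holds 200 bases, 170 before the annotated start site and 30 from it on, 5′ to 3′ on the gene's strand, from RefSeq on build GRCm38.p6. Capitals mark matches, on either strand, to GCGCANGCG, the letters searched for nuclear respiratory factor 1 (NRF1), or to CCGGAAG, those searched for ETS factors such as the GA-binding protein GABP, which appears as CTTCCGG where it lies on the opposite strand. The positions are chr11:96075602-96075801 on the minus strand for Atp5g1, chr15:102671018-102671217 (minus) for Atp5g2, chr2:73911297-73911496 (minus) for Atp5g3, chr7:30626085-30626284 (minus) for Cox6b1, chr7:4753065-4753264 (minus) for Cox6b2, chr4:24897913-24898112 (plus) for Ndufaf4 and chr2:140170476-140170675 (plus) for Ndufaf5.
Atp5g1: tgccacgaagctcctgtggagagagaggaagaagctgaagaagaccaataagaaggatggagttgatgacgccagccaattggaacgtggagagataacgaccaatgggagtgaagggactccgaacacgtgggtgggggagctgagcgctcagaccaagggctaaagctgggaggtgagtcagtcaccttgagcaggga
Atp5g2: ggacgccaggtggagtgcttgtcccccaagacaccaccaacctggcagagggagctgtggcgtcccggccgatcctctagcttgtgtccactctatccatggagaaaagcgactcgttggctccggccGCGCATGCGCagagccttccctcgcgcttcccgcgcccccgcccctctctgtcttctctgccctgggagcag
Atp5g3: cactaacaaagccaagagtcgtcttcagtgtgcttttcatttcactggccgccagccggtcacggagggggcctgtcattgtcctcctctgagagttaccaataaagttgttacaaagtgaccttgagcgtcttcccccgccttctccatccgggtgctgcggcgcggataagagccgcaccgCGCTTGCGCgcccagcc
Cox6b1: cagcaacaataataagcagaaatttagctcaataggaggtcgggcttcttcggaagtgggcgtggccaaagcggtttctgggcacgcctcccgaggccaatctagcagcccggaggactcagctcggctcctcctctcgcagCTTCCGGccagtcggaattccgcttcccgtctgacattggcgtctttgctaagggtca
Cox6b2: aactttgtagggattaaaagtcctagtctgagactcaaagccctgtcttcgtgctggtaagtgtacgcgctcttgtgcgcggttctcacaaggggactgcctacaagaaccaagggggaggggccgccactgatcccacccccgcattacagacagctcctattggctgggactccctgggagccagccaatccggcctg
Ndufaf4: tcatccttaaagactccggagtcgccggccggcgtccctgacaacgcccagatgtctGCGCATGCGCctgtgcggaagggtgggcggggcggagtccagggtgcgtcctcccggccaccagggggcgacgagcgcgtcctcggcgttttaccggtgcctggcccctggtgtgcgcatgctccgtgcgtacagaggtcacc
Ndufaf5: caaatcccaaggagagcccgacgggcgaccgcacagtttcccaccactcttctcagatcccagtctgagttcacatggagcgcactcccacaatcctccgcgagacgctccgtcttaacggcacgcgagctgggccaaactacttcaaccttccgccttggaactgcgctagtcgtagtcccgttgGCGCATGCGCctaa

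The NRF1 letters began 42 bases before the start site in Atp5g2 and 113 bases before it in Ndufaf4, and 13 bases after it in Atp5g3 and 16 bases after it in Ndufaf5. The ETS letters began 28 bases before the start site in Cox6b1, and the printed stretches of Atp5g1 and Cox6b2 held neither. Genes with and without a match stood on both sides, in a set picked for its opposite directions. Atp5g2 and Ndufaf4, which were higher with α-amantin on the deposited scale, carried the same motif as Atp5g3 and Ndufaf5, which were lower. RefSeq windows of 300 bases (250 before the start site and 50 after it) were found for 74 of the 91 genes, 79 windows in all. The NRF1 letters were in 21 of the 79 member windows (26.6%) and in 6.25% of all 32851 windows, the ETS letters in 19 (24.1%) and 8.86%, the YY1 letters AAGATGGCG in 7 (8.86%) and 1.4%, and the TATA letters TATAAA in 9 (11.4%) and 13.6%. These shares are descriptions of the letters in the windows, with no test. Of the 49 windows of genes that were lower with α-amantin in BBB, 11 held the NRF1 letters, 13 the ETS letters and 7 the YY1 letters, of the 16 windows of genes that were higher, 5, 3 and 0, and of the 12 windows of genes not past the threshold, 5, 3 and 0. The 7 genes with YY1 letters were Atp5j, Atp5j2, Ndufa9, Ndufaf8, Ndufc1, Ndufs4 and Ndufs7. All were called lower with α-amantin in BBB on their brightest probe set, as were 45 of the 74 genes with a window. Another probe set of Ndufs4 was called higher. Ndufaf8 measured −0.37 in BBB, −0.06 there after quantile normalization (limma adjusted p = 0.694), and −0.12 in BCB, where it was not called. A link between the YY1 letters and the direction was not tested.

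The deposited intensities had been scaled so that the mean of each array without its highest and lowest 2% was 150.0. On that scale the arrays with α-amantin had more signal from spike-in controls: the hybridization controls lay 0.51 (BBB) and 0.77 (BCB) higher on the log2 scale, and the poly-A controls 1.78 and 1.81. The embryos' own 18S ribosomal RNA lay 1.26 and 1.62 higher, and the 75th percentile of intensity was lower, at 87.4 and 89.2 against 118 and 117. In each of these no array overlapped between the groups (exact two-sided permutation test p = 0.0286, the smallest that 4 against 4 arrays allow, adjusted p = 0.0889 over 28 tests). The change with α-amantin in the log2 ratio of actin probe sets at the 3′ and 5′ ends, a measure of RNA quality, was −0.22 in BBB at the same p values and −0.24 in BCB (exact permutation p = 0.0571, adjusted p = 0.16), and the change in that of Gapdh was −0.057 and −0.12 (adjusted p = 0.73 and 0.48). Changes with α-amantin are therefore given on the deposited scale, where the median gene rose by 0.11 in BBB and 0.17 in BCB, and set against scaling to the hybridization controls, where the median gene stood at −0.22 and −0.34, and to the poly-A controls, where it stood at −1.11 and −1.08. In RNA of whole embryos, fewer cells and less RNA per cell cannot be told apart. The 7 tested markers of the two-cell stage were all lower with α-amantin, with summed intensities of 10528 to 13598 on the BBB arrays and 568 to 990.1 with the inhibitor. Of 11 oocyte and early embryo markers, 8 were higher and 1 lower, with sums of 17419 to 20648 and of 27487 to 29873. Beside these marker counts, 37.1% of all genes tested were higher and 33.1% lower in BBB. Of 10 cumulus and granulosa cell markers, 6 were higher and 1 lower in BBB; their sums were 2175 to 2575 and 523 to 641, and Amhr2 alone made 2086 of the BBB mean. Sperm markers summed to at most 134. The part of these shifts in the members' changes was not tested.

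Transcripts of the respiratory chain and ATP synthase were mostly lower with α-amantin. In BBB embryos 55 of the 89 genes were lower, 18 higher and 16 not past the threshold (an adjusted p of 0.05, with adjustment over every tested probe set), that is 61.8% lower and 20.2% higher. Among all 15274 genes tested, 33.1% were lower and 37.1% higher. The median log2 change of the members was −0.60, against 0.11 for all genes, and 65 of the 89 lay below that all-gene median. In BCB embryos 52 were lower and 20 higher, 58.4% and 22.5%, against backgrounds of 31.9% and 39.9%, with a median of −0.63 against 0.17 for all genes and 67 of the 89 below it. A change of at least 2-fold, on the log2(intensity + 16) scale used throughout, was a fall in 32 genes and a rise in 10 in BBB (backgrounds of 21.9% and 15.9%), and a fall in 34 and a rise in 6 in BCB (21.1% and 16.2%). All 4 treated arrays lay below all 4 untreated ones for 49 genes in BBB and 47 in BCB (backgrounds of 30.7% and 29.7%), and above them for 17 and 18 (33.9% and 35.6%). The direction of the rises depended on the scale: with the poly-A controls as reference, Ndufa10, Cox6a2 and Atp5g2 alone stayed above 0 in both kinds of embryo, Cox6a2 in BBB was the 1 rise still called, and 83 genes in BBB and 82 in BCB were lower, where 80.5% and 79.4% of all genes were lower and 1.29% and 1.11% higher. Both control scalings lower the treated arrays, so falls grow there by construction. Quantile normalization raised the median change of all genes, to 0.22 in BBB and 0.23 in BCB, but did not move every member up. The change of Cox6a1, a bright member, went from −0.55 to −1.03 in BBB. After this normalization 48 of the 55 falls in BBB and 45 of the 52 in BCB were still called. The members' median stayed below that of all genes, by 0.71 on the deposited scale, 0.67 after quantile normalization, 0.86 with the hybridization controls and 1.17 with the poly-A controls in BBB.

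**Figure D1:**
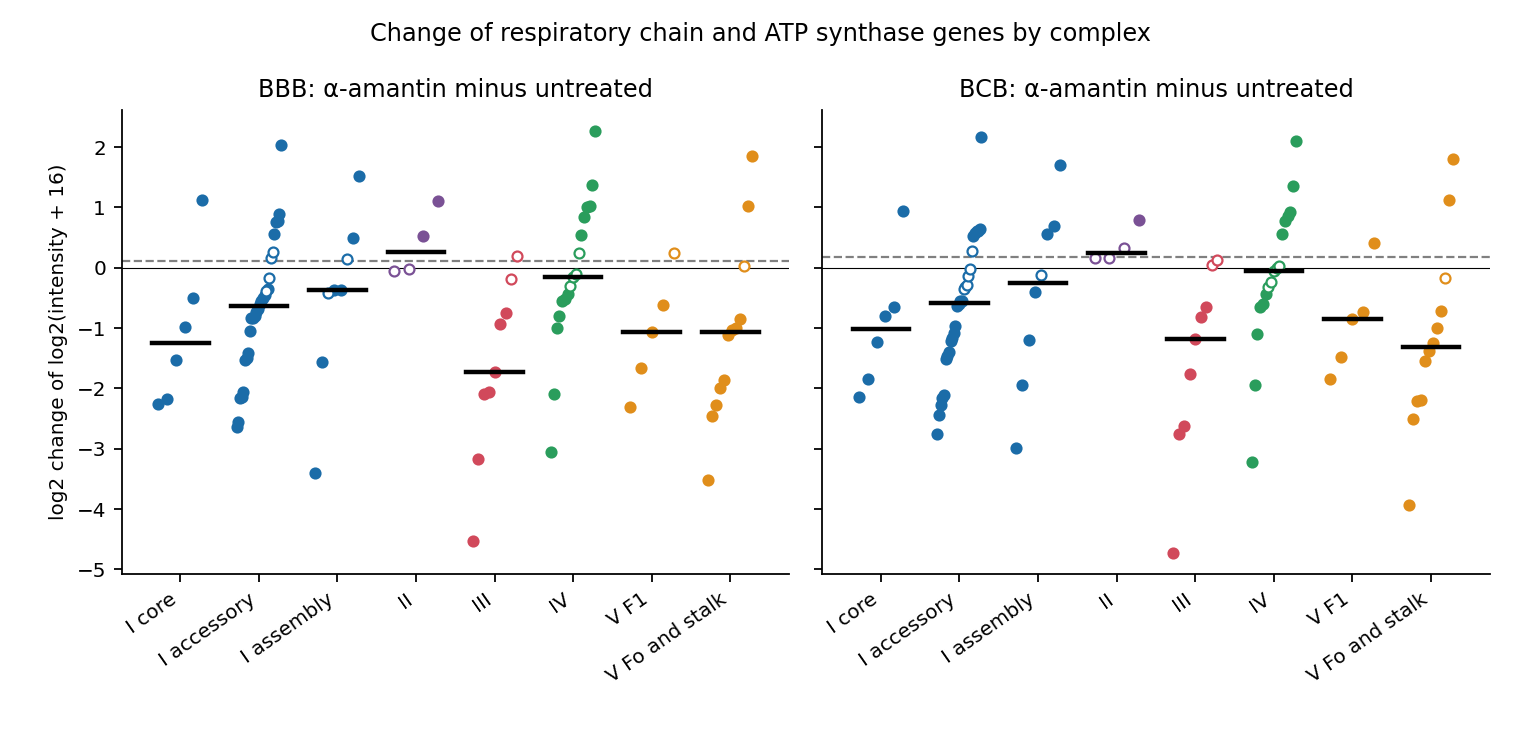
Log2 change with α-amantin of each tested gene by class, in BBB and BCB embryos (filled points passed the adjusted p threshold, open points did not, black bars are class medians, the dashed line is the median of all 15274 genes tested). The complex III and V medians lie below 0 and that of complex II lies above 0 on the deposited scale (0.25 in BBB), which turns to −1.21 with the poly-A controls as reference.

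Complex I, the entry point for electrons from NADH, had 28 of 42 genes lower and 8 higher in BBB. In BCB 26 were lower and 10 higher, and the medians were −0.58 in BBB and −0.62 in BCB. The shares over all genes were 33.1% lower and 37.1% higher in BBB and 31.9% and 39.9% in BCB. Of the 6 core subunits, which carry the flavin and the iron-sulphur clusters, 5 were lower and Ndufv2 was higher in both kinds. Ndufs7 and Ndufs8, which hold iron-sulphur clusters of the arm that leads to coenzyme Q, had the largest falls among them. Ndufs7 read 329, 331, 228 and 214 on the 4 BBB arrays and 40, 39.7, 45.9 and 49.5 with α-amantin, a log2 change of −2.26 (SE 0.17, limma adjusted p = 4.83e-11), and it fell by 1.84 in BCB. Ndufs8 went from 719 ± 115 to 148 ± 26.3 in BBB (SD, n = 4), a change of −2.17, and fell by 2.14 in BCB, where a dim probe set of the same gene rose by 0.45. Ndufv2, another iron-sulphur subunit, read 275, 237, 205 and 232 untreated and 499.7, 556, 575 and 501 with the inhibitor in BBB. Its change of 1.12 in BBB and 0.94 in BCB was called on the deposited scale, where scaling to the poly-A controls gave −0.58 and −0.78.

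Among the 28 accessory subunits, which surround the core and hold it together, 19 were lower and 5 higher in BBB. In BCB 17 were lower and 6 higher. The backgrounds were 33.1% lower and 37.1% higher in BBB and 31.9% and 39.9% in BCB. Ndufb7 and Ndufc1, subunits of the membrane arm, had the largest falls among the accessory subunits in BBB. Ndufb7 read 344, 311, 262 and 278 in untreated BBB embryos and 37.8, 14.9, 43.5 and 47.6 with α-amantin (−2.65, SE 0.25; −2.28 in BCB). Ndufc1 went from 268 ± 43.0 to 33.9 ± 15.5 (−2.56; −2.75 in BCB). Ndufa10, a peripheral subunit related to nucleoside kinases, went the other way. It read 270.2, 267, 363 and 312 on the BBB arrays and 1273, 1149.6, 1336 and 1411 with the inhibitor (2.04, SE 0.12, limma adjusted p = 1.92e-13), and 333, 229, 265 and 303 against 1336, 1364, 1239 and 1344 in BCB (2.17). Treated and untreated arrays did not overlap in either kind, and the values stayed above 0 with the poly-A controls at 0.31 and 0.42, where neither was called. Ndufa3 rose on the deposited scale by 0.90 in BBB and 0.58 in BCB; under poly-A scaling it stood at −0.56 and −0.91.

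Of the 8 assembly factors of complex I with an Ndufaf symbol, which build the complex and then leave it, 4 were lower and 2 higher in BBB. In BCB 4 were lower and 3 higher. The backgrounds were 33.1% lower and 37.1% higher in BBB and 31.9% and 39.9% in BCB. Ndufaf5, a factor that modifies Ndufs7 during assembly, read 303, 285, 223 and 262 in BBB and 17.9, 13.2, 9.4 and 4.7 with α-amantin (−3.40, SE 0.17, limma adjusted p = 2.11e-14), and fell by 2.99 in BCB. The treated values lay close to the 40th percentile of the arrays, which averaged 11.4 to 12.6 per group, so the size of the change depended on the pseudocount and was −4.58 with 1 and −2.14 with 64 in BBB. Ndufaf1 fell by 1.56 and 1.94. Ndufaf4 was high in all groups and higher with the inhibitor: 1021, 900.2, 1297 and 1280.5 became 3107, 3511, 3312 and 2989 in BBB (1.52, SE 0.10, limma adjusted p = 2.09e-12). It changed by 1.70 in BCB, and stood at −0.24 and −0.088 with the poly-A controls. Ndufaf3 was near the background, at 15.8 ± 2.27 in BBB and 29.6 ± 9.49 with α-amantin. Its rise of 0.50 was lost without BBB array 2 (0.45, adjusted p = 0.0600), BBB α-amantin array 1 (0.43, 0.0657) or array 3 (0.40, 0.0802), and it was −0.51 with the poly-A controls.

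Complex II, the succinate dehydrogenase that also serves the citric acid cycle, had no gene lower on the deposited scale. Of all genes 33.1% were lower in BBB and 31.9% in BCB. Sdhb, its iron-sulphur subunit, read 129, 106, 92.5 and 112 in BBB and 258, 263, 222 and 272 with α-amantin (1.10, SE 0.15, limma adjusted p = 8.76e-07), and changed by 0.79 in BCB; with the poly-A controls it stood at −0.52 and −0.84. Sdha, the flavin subunit, read 524, 537, 639 and 648 untreated and 626, 516, 574 and 584 with the inhibitor in BBB. These values overlap, and the change was −0.03 in BBB and 0.16 in BCB, neither past the threshold, although without BCB α-amantin array 4 the BCB value was called (0.28, adjusted p = 0.0358). A second, dimmer Sdha probe set, which can read related transcripts, rose by 0.97 in BBB (adjusted p = 0.0035) and measured 0.60 in BCB (adjusted p = 0.0563). Of the membrane anchors, Sdhc measured −0.05 and 0.16. Sdhd went from 65.2 ± 12.1 to 104 ± 30.3 in BBB, a rise of 0.53 (adjusted p = 0.0119) that was lost with its probe sets averaged (0.091, adjusted p = 0.573), with the hybridization controls (0.11, 0.635) and without BBB α-amantin array 3 (0.41, 0.0580), and that turned to −0.95 with the poly-A controls. In BCB it measured 0.33 (adjusted p = 0.109), and was called without BCB α-amantin array 3 (0.45, 0.0381) and after quantile normalization (0.64, 0.003), against −1.16 with the poly-A controls. The median over the 4 genes was 0.25 in BBB and 0.24 in BCB on the deposited scale, 0.59 and 0.56 after quantile normalization, −0.17 and −0.41 with the hybridization controls, and −1.21 and −1.26 with the poly-A controls. Relative to all genes, the same medians were 0.14 and 0.07 on the deposited scale, 0.38 and 0.33 after quantile normalization, 0.045 and −0.069 with the hybridization controls and −0.10 and −0.19 with the poly-A controls.

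**Figure D2:**
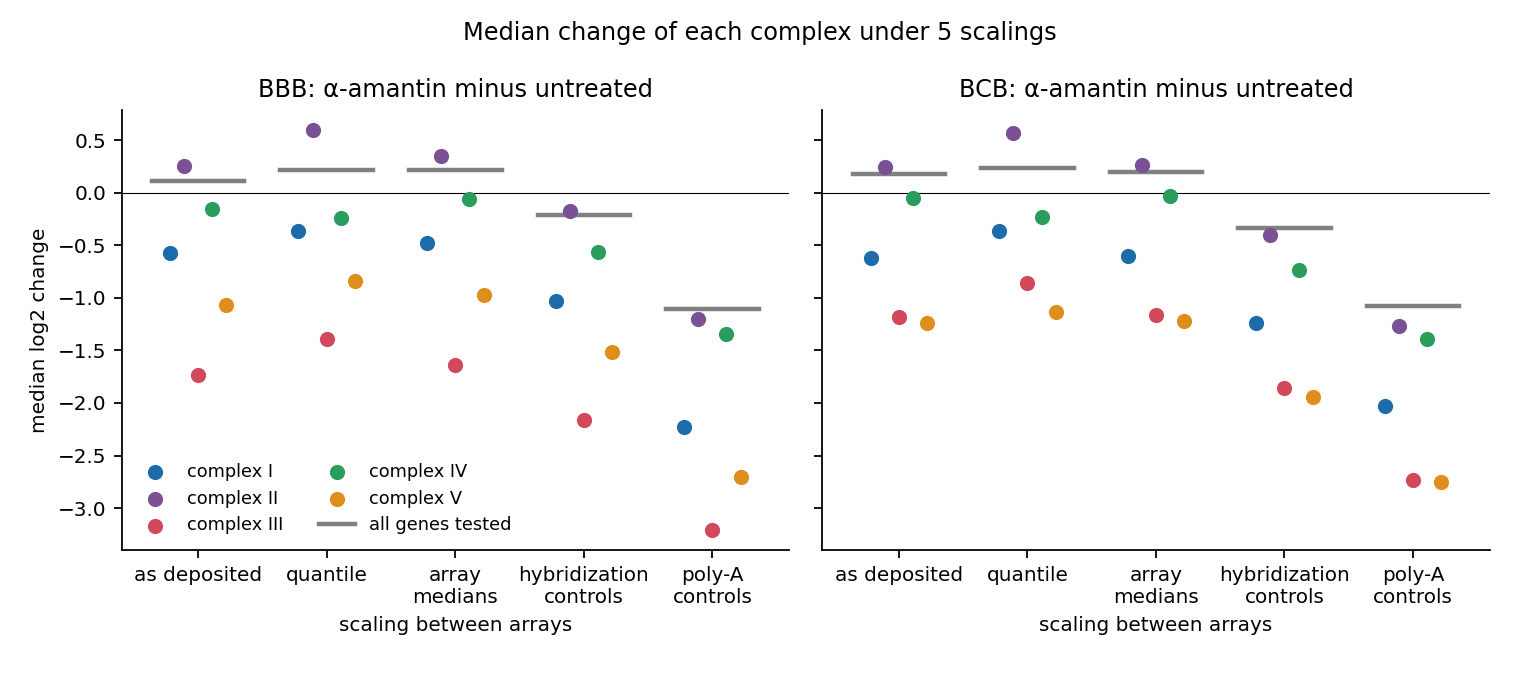
Median log2 change with α-amantin per complex (coloured points) under 5 scalings of the arrays, in BBB and BCB embryos, with the median of all genes tested as a grey bar. The complex III median stays below that of all genes under each scaling shown, whereas the complex II median runs from 0.59 after quantile normalization through 0.25 on the deposited scale to −1.21 with the poly-A controls in BBB.

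Complex III, which passes electrons from coenzyme Q to cytochrome c, had 7 of 9 genes lower and none higher in both kinds. The medians were −1.74 in BBB and −1.18 in BCB. The shares over all genes were 33.1% lower and 37.1% higher in BBB and 31.9% and 39.9% in BCB. Uqcrfs1, the Rieske iron-sulphur protein and 1 of the catalytic subunits, had the largest fall of all 89 genes. It read 812, 915, 752 and 794 in BBB and 22.9, 32.3, 14.1 and 13.8 with α-amantin, a log2 change of −4.53 (SE 0.19, limma adjusted p = 6.24e-16), or 23.1-fold. In BCB it read 664, 909, 853 and 672 untreated and 11, 17.5, 4.6 and 24.8 treated (−4.73). The treated arrays lay near the 40th percentile, and with pseudocounts of 1 and 64 the BBB change was −5.31 and −3.38. Cyc1, the cytochrome c1 subunit that hands electrons on, read 781, 848, 798 and 790.4 in BBB and 102, 87.2, 61 and 55.8 treated (−3.18, SE 0.14), and fell by 2.61 in BCB. Uqcrb, a small subunit at the coenzyme Q site, was the brightest of the complex and went from 2724 ± 166 to 639.6 ± 159 in BBB (−2.09; −1.76 in BCB). Uqcrc2 and Uqcr11, named after their values were seen, were the members of complex III that did not pass the threshold in either kind. Both medians are the value of Uqcrq, whose probe sets disagree, and were −0.93 in BBB and −0.82 in BCB without probe sets that can read related transcripts.

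Complex IV, cytochrome c oxidase, had 7 of 17 genes lower and 6 higher in BBB and 6 and 6 in BCB on the deposited scale. The medians were −0.16 and −0.05. These counts are 41.2% lower and 35.3% higher in BBB and 35.3% either way in BCB. Among all genes 33.1% were lower and 37.1% higher in BBB and 31.9% and 39.9% in BCB, so the mix lay near the background. Cox4i1, the ubiquitous form of the largest subunit encoded in the nucleus, read 1066, 1174, 1022 and 986 in BBB and 141, 95.6, 115 and 104 with α-amantin (−3.06, SE 0.13, limma adjusted p = 8.06e-16), and fell by 3.22 in BCB. Cox5a, which sits on the matrix side, went from 3277 ± 68.2 to 772 ± 191 (−2.10; −1.94 in BCB). Cox6a1 was the brightest member of the complex and changed less, from 3890.1 ± 267 to 2666 ± 379 (−0.55; −0.43 in BCB). Among the rises on the deposited scale, Cox6a2, the heart and muscle form of that subunit, read 80.8, 79.9, 102 and 118 in BBB and 509, 548, 494 and 494 with the inhibitor (2.26, SE 0.14, limma adjusted p = 6.38e-13), with 2.09 in BCB. It remained above 0 with the poly-A controls, at 0.43 in BCB. Cox6b2, the testis form of the subunit that bridges the oxidase dimer, read 553, 449.8, 510.0 and 551 in BBB and 1451, 1202, 1235 and 1587 treated (1.38), and 1.36 in BCB, and turned to −0.37 and −0.41 with the poly-A controls. Cox8a went from 1486 ± 194 to 3018 ± 454 (1.01; 0.86 in BCB) and stood at −0.76 and −0.93 with the poly-A controls. Cox7a2l, which takes part in joining complexes III and IV, rose by 0.54 and 0.56 and stood at −1.20 and −1.19 with those controls. Ndufa4 and Ndufa4l2, named after their values were seen, were the other rises in both kinds. Cox4i2 and Cox7a1, lung and muscle forms in other tissues, stayed near background, with group means of Cox4i2 between 12.3 and 22.3.

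Isoforms within families of complexes IV and V changed unequally, as the log2 ratio of both genes on the same array shows without the array scale, apart from the pseudocount. The Cox6a2 to Cox6a1 log2 ratio rose by 2.81 in BBB and 2.53 in BCB, and the Cox6b2 to Cox6b1 log2 ratio by 2.38 and 2.46. Behind the Cox6b pair, Cox6b1, the somatic form, read 985, 944, 835 and 1047 untreated and 590.1, 474, 384 and 436 treated in BBB, and the change in BCB was −1.10. The Cox4i2 to Cox4i1 ratio was also compared, but Cox4i2 was near background, so the size of its change is not given. The Cox7a2l to Cox7a2 log2 ratio rose by 0.70 and 0.54, while that of Cox8c, a testis form, to Cox8a fell by 1.12 and 0.91. In each pair with a size given here the 4 treated arrays lay apart from the 4 untreated ones. The exact two-sided permutation p was 0.0286, the smallest possible, in all 16 comparisons, and so was the adjusted p. The pairs were tested after their values were seen. For the Cox6a and Cox6b pairs, a called rise and a called fall on the deposited scale had largely fixed the separation, so this p adds no support there. A ratio within an array shows that both genes changed unequally, and the levels of 2 probe sets are not compared.

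In complex V, 13 of 17 genes were lower in both kinds, with 2 higher in BBB and 3 in BCB on the deposited scale. The medians were −1.07 in BBB and −1.24 in BCB. The backgrounds were 33.1% lower and 37.1% higher in BBB and 31.9% and 39.9% in BCB. The F1 head, where ATP is made, had 4 of 5 genes lower. Atp5a1, its alpha subunit, went from 1309 ± 109.5 to 253 ± 47.8 (−2.31; −1.84 in BCB), and Atp5d, its delta subunit, fell by 1.67 and 1.49. Atp5b, the catalytic beta subunit, was the brightest of the complex and read 2297, 2416, 2116 and 2379.7 in BBB and 1042, 1100.2, 1089 and 1113 with α-amantin (−1.07, SE 0.08, limma adjusted p = 2.31e-11; −0.84 in BCB). Atp5e, the epsilon subunit, measured 0.25 in BBB (adjusted p = 0.208) and rose by 0.40 in BCB (adjusted p = 0.0424). Of the 12 genes of the Fo part and the stalks, 9 were lower and 2 higher in both kinds. Atp5pb, the b subunit of the peripheral stalk, went from 1789 ± 89.9 to 315 ± 48.5 (−2.46; −2.51 in BCB). Atp5mpl, a small membrane protein of the complex, rose by 1.03 and 1.13 on the deposited scale and stood at −0.67 and −0.59 with the poly-A controls.

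A wide split within a family was that of the c subunit, which forms the rotor ring and which Atp5g1, Atp5g2 and Atp5g3 encode with different import peptides and the same mature protein. Atp5g3 read 2491, 2454, 2267 and 2534 in BBB and 210.3, 256, 201 and 143 with α-amantin, a change of −3.51 (SE 0.13, limma adjusted p = 6.41e-17), and fell by 3.93 in BCB. Atp5g1 read 917, 762, 688 and 859.9 untreated and 161, 177, 166 and 112 treated in BBB (−2.28; −2.21 in BCB). Both therefore fell in all 4 arrays of each kind, beyond the spread of their untreated groups. Atp5g2 read 116, 103, 116 and 114 in BBB and 420.5, 519, 396 and 454 with the inhibitor (1.85, SE 0.12, limma adjusted p = 3.27e-12), and 122, 103, 86.8 and 109 against 409, 452, 354 and 411 in BCB (1.80). Its value with the poly-A controls was 0.20 and 0.14, not called. Within arrays, the Atp5g2 to Atp5g3 log2 ratio rose by 5.36 in BBB and 5.73 in BCB. The Atp5g2 to Atp5g1 log2 ratio rose by 4.13 and 4.02, and the Atp5g1 to Atp5g3 log2 ratio by 1.23 and 1.71. Treated and untreated arrays lay apart in each (exact two-sided permutation p = 0.0286, the smallest possible, adjusted p = 0.0286 over 16 comparisons). These pairs, too, were tested after their values were seen. For the ratios with Atp5g2, its rise and the falls of Atp5g1 and Atp5g3 had already fixed the separation, so this p adds no support. In the printed promoters, Atp5g2 and Atp5g3 carry the NRF1 letters on opposite sides of the start site and Atp5g1 carries none.

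**Figure D3:**
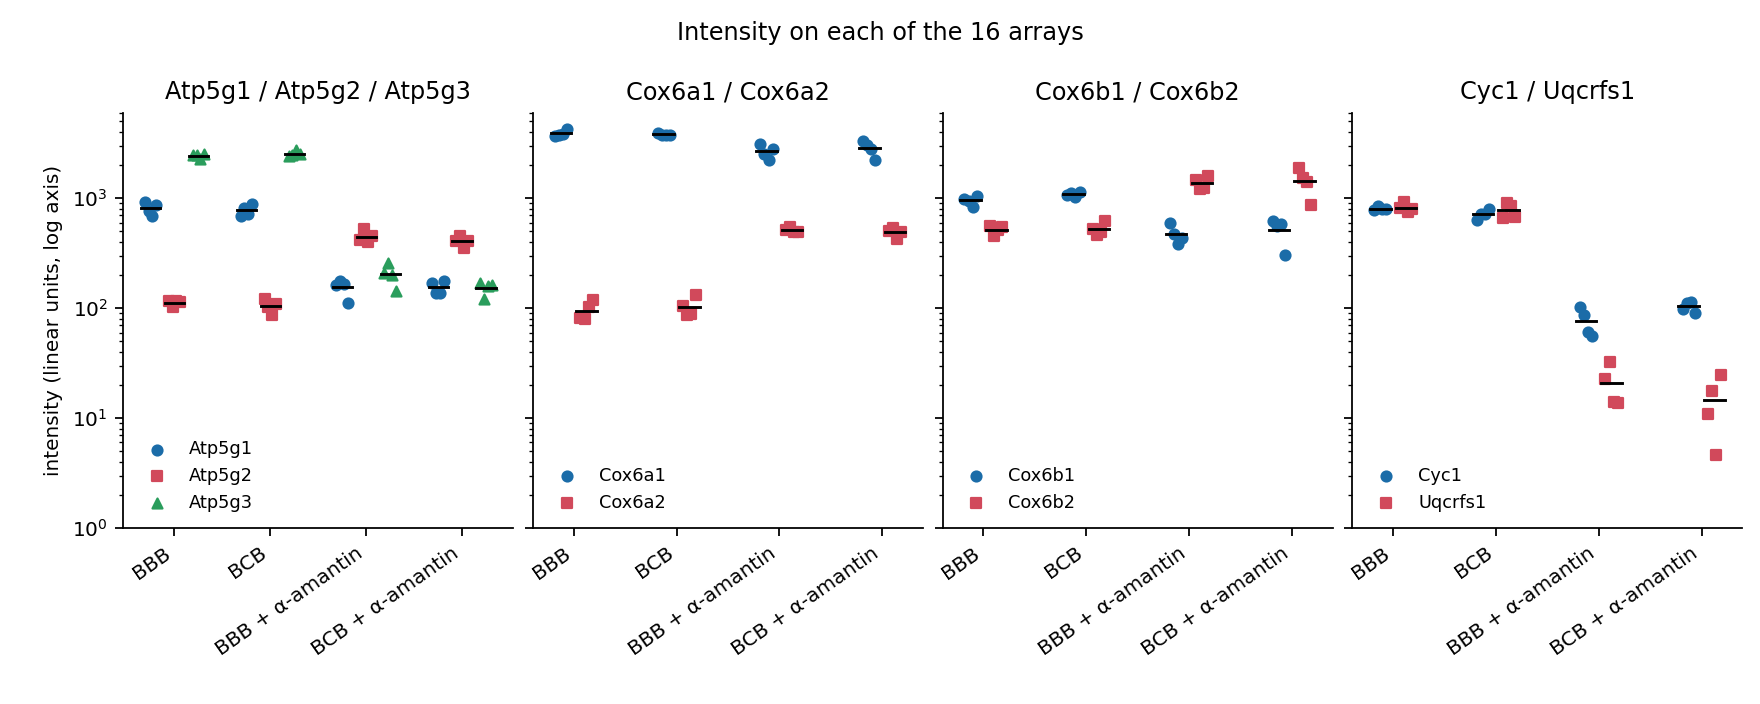
Intensity on each array (log axis, points are arrays, bars are group means, n = 4 per group) of the c subunit genes, the Cox6a and Cox6b isoform pairs, and Cyc1 with Uqcrfs1. The 4 untreated BBB arrays of Uqcrfs1 lie between 752 and 915 and the 4 treated ones between 13.8 and 32.3, and heights of different genes are not comparable with each other.

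Different probe sets of a gene were seldom called in opposite directions, although many genes had a probe set that was not called. Of the 167 probe sets tested, 103 were lower and 31 higher in BBB and 98 and 35 in BCB. The shares over all 31953 tested probe sets are not given here. Among the 48 genes with several tested probe sets, all of them were called in 1 direction for 28 genes in BBB and 26 in BCB. In BBB 3 genes had probe sets called in opposite directions: Ndufb8, an accessory subunit of complex I (0.55 and −0.49), Ndufs4, another accessory subunit (−2.15 for the brightest and 0.76 for another), and Uqcrq, a small subunit of complex III (−1.74 and 1.11). Ndufs8 joined them in BCB, with −2.14 and 0.45. In these genes at least 1 probe set of each pair was dim, and 19 of the 89 genes were read from a probe set that can also detect related transcripts, so that the direction of Ndufb8, Ndufs4 and Uqcrq, and of Ndufs8 in BCB, is uncertain.

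The changes with α-amantin in BBB and BCB embryos lay close together. Over the 89 genes the log2 changes of both kinds had a Pearson r of 0.978 and a Spearman rho of 0.975, a description across genes, which are not independent replicates, from 2 sets of arrays with none in common. By call, 51 genes were lower in both kinds, 17 higher in both and 12 not past the threshold in either, and none was called in opposite directions. Ndufa13, Ndufa6, Ndufaf8, Sdhd and Cox4i2 were called in BBB alone and Ndufa1, Ndufaf2, Ndufaf6 and Atp5e in BCB alone, names given after their values were seen, but no difference between the kinds was called for any of them.

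**Figure D4:**
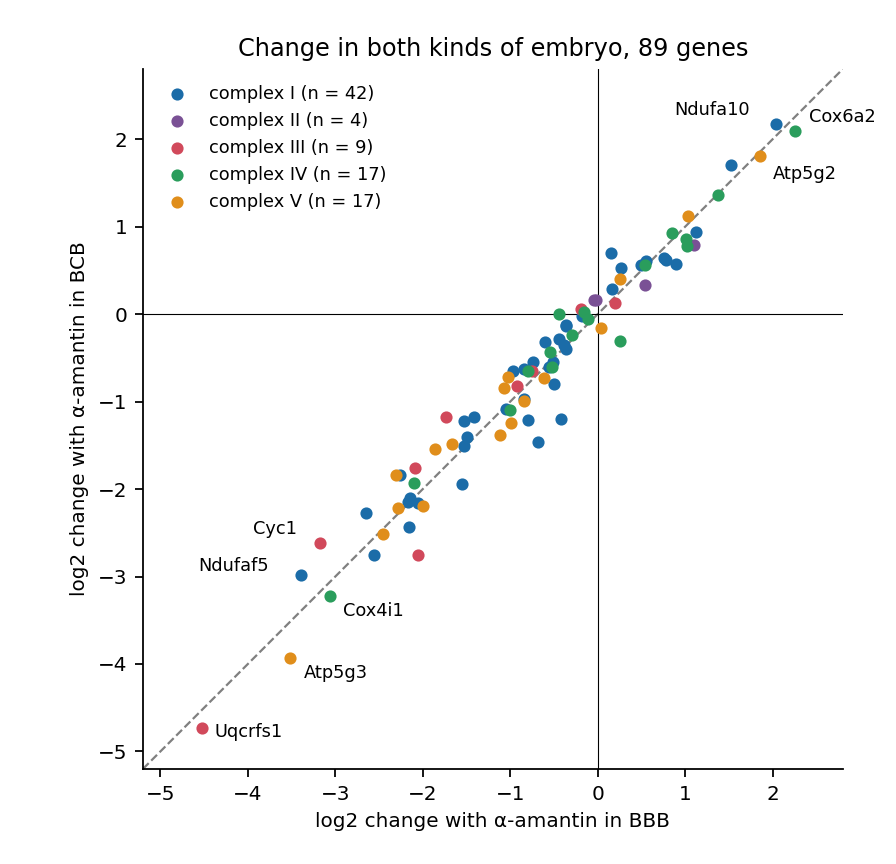
Log2 change with α-amantin in BCB embryos (vertical) against that in BBB embryos (horizontal) for the 89 tested genes, coloured by complex, with the line of equal change dashed. Points lie near the line from Uqcrfs1 (−4.53 and −4.73) to Cox6a2 (2.26 and 2.09 on the deposited scale, 0.43 in BCB with the poly-A controls).

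The strain of the maternal pronucleus gave no call among the members. Between untreated BCB and BBB embryos none of the 89 genes and none of the 167 probe sets passed the threshold in limma. Of all genes 0.655% did. An unadjusted limma p under 0.05 was found for 1079 of all 15274 genes, and for 3 members. These were Ndufaf1, which was 0.58 higher in BCB on the log2 scale (95% interval 0.21 to 0.95, adjusted p = 0.234), Uqcrb (−0.43, −0.74 to −0.12, adjusted p = 0.385) and Atp5j2 (0.37, 0.08 to 0.66, adjusted p = 0.474). Ndufaf1 read 80.5, 66.8, 49.5 and 46.6 in BBB and 63.9, 103, 115 and 116 in BCB, which overlap. Uqcrb read 2715, 2939, 2535 and 2706 in BBB and 2252, 1948, 2125 and 1779.9 in BCB, which do not. In all, 3 genes lay above on all 4 BCB arrays (Cox5a, Atp5j2 and Atp5pb) and 2 below (Uqcrb and Atp5a1), 3.37% and 2.25% of the members, near the backgrounds of 2.86% and 3.57%. The interval of the difference lay within a 2-fold change, that is within 1 on the log2 scale either way, for all 89 genes, with a median distance of 0.33 from the estimate to either end.

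With α-amantin, again none of the 89 genes differed between BCB and BBB past the threshold (background 0.0786%). An unadjusted limma p under 0.05 was found for 1632 of all 15274 genes, and for 15 members. Uqcrc1, a core protein of complex III, had the smallest adjusted p (−0.65, 0.195), and Ndufv3, a small subunit of complex I, the largest difference (−0.76, 95% interval −1.28 to −0.25, adjusted p = 0.252). The 4 BCB arrays lay above the 4 BBB arrays for Ndufs3, Sdhc and Cox4i2 and below them for none, against backgrounds of 2.01% and 1.65%. The interval lay within 1 either way for 85 genes, the exceptions being Ndufv3, Sdhc, Uqcrc1 and Cox7c. The interaction, the change with α-amantin in BCB minus that in BBB, was likewise called for none of the 89 (background 0.255%). Here 1230 of all 15274 genes and 7 members had an unadjusted limma p under 0.05. The smallest adjusted p of the interaction among the members was that of Cyc1 (0.56, 95% interval 0.15 to 0.97, limma adjusted p = 0.374). Of these intervals 82 lay within 1 either way, and differences of that size were not bounded for Ndufb7, Ndufv3, Ndufaf2, Ndufaf6, Uqcrc1, Uqcrq and Cox7c. No alternative setting gave a call in any of the 3 comparisons.

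**Figure D5:**
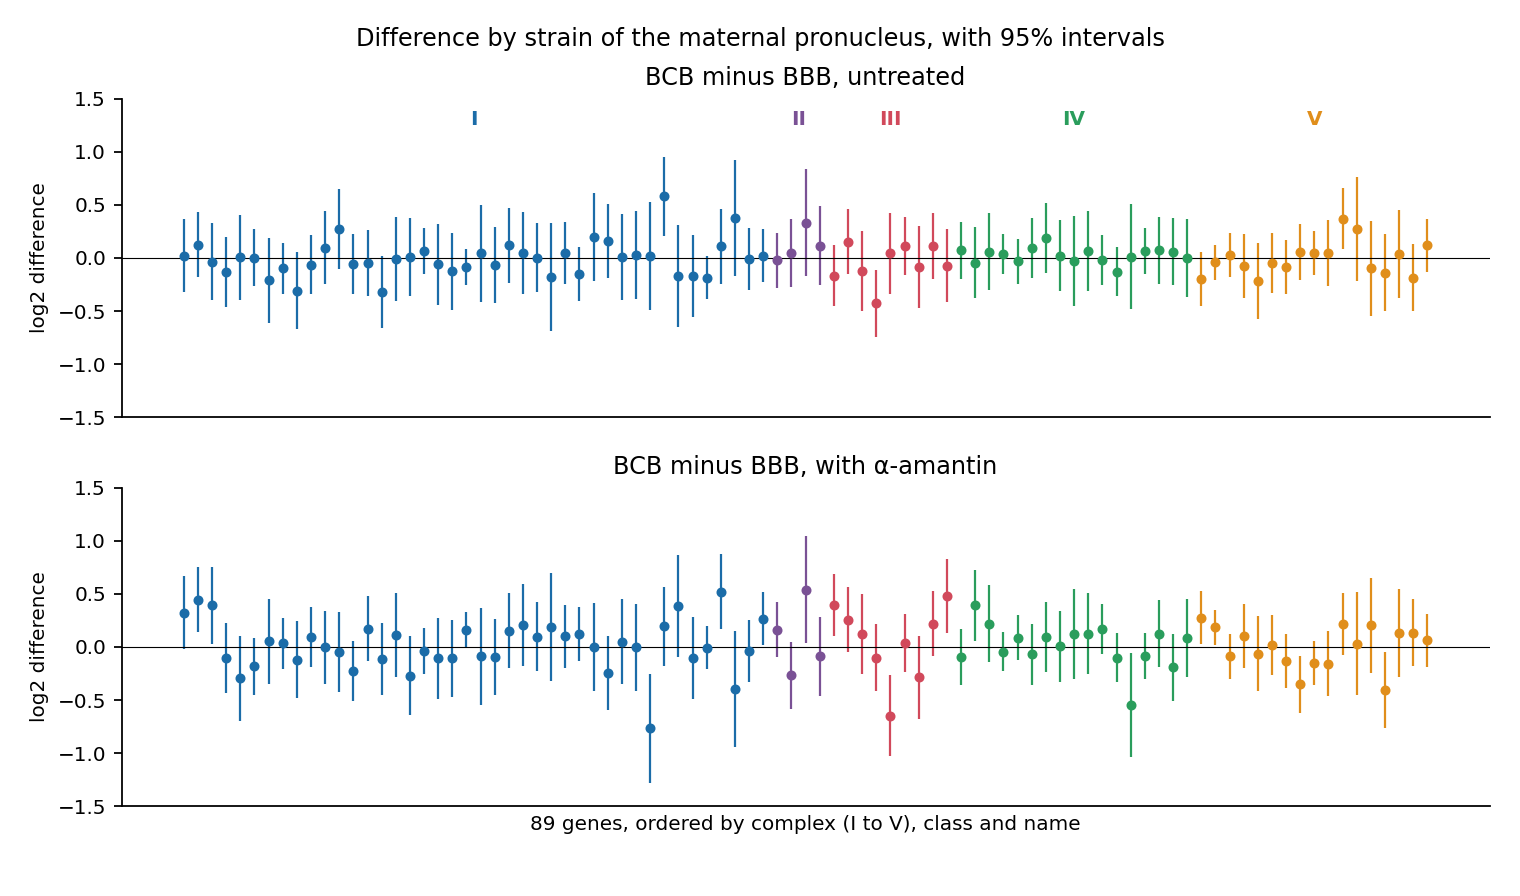
Log2 difference between BCB and BBB embryos, untreated and with α-amantin, for the 89 tested genes (points are estimates, lines are 95% intervals, genes in order of complex, class and name). The untreated estimates run from −0.43 (Uqcrb) to 0.58 (Ndufaf1), and every untreated interval stays within 1 either way.

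Of the genes that serve the respiratory chain but are not part of it, Sdhaf3 was the 1 gene of the pathway lists that differed by strain. It was 1 of 9 tested assembly factors of complexes II and III. Of all genes 0.655% differed between untreated BCB and BBB embryos. The pathway lists were chosen with earlier results of these data known. The product of Sdhaf3, a mitochondrial chaperone, helps to mature the iron-sulphur subunit of complex II. Sdhaf3 averaged 22.3 ± 4.61 in untreated BBB embryos (17.5 to 27.3) and 453 ± 85.3 in untreated BCB embryos (334.9 to 533). The groups lay far apart, with a log2 difference of 3.60 (SE 0.15, limma adjusted p = 1.66e-13). With α-amantin the averages were 47.8 ± 8.37 in BBB and 66.6 ± 6.45 in BCB, and the difference was 0.38 (adjusted p = 0.371). The interaction was −3.23 (SE 0.22, limma adjusted p = 3.45e-09). On the deposited scale the inhibitor changed Sdhaf3 by −2.49 in BCB and 0.74 in BBB, where the untreated values lay near background. The direction of that BBB change under the control scalings is not given here. The untreated difference ran from 3.52 to 3.74 and the interaction from −3.36 to −3.14 when each array was left out in turn. Sdhb, the subunit that Sdhaf3 serves, read 110.0 ± 15.3 in BBB and 114 ± 13.9 in BCB, a difference of 0.05 (−0.27 to 0.36).

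Of the regulators of mitochondrial genes and the factors that keep up mitochondrial DNA, 11 of 16 were lower and 3 higher in BBB. In BCB 11 were lower and 4 higher, and the medians were −1.83 and −1.89. Among all genes 33.1% were lower and 37.1% higher in BBB and 31.9% and 39.9% in BCB, with medians of 0.11 and 0.17. Gabpa, the DNA-binding subunit of GABP, went from 1647 ± 69.5 to 22.0 ± 8.81 in BBB (−5.48, SE 0.17, limma adjusted p = 3.43e-18) and fell by 5.74 in BCB. Nrf1, which encodes NRF1, rose from 1251 ± 153 to 2654 ± 295 on its brightest probe set (1.08; 1.19 in BCB), whereas the mean over its probe sets was −0.014 and 0.06, and scaling to the poly-A controls gave −0.69 and −0.60. No test was made of a link between these levels and the motif matches above.

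Of 7 tested genes listed for ATP export and uncoupling, 4 were lower and 3 higher in both kinds on the deposited scale. Among all genes 33.1% were lower and 37.1% higher in BBB and 31.9% and 39.9% in BCB, so a mix of directions was also the background. Slc25a3, the mitochondrial phosphate carrier, went from 3409 ± 225 to 418 ± 24.6 (−2.98; −2.72 in BCB), and Vdac1, the pore of the outer membrane, from 1729 ± 111 to 4478 ± 314 (1.36; 1.12 in BCB, and −0.41 and −0.68 with the poly-A controls). Of 4 genes for assembly and inhibition of complex V, 2 were lower and 2 higher. Atpif1, the inhibitor of ATP hydrolysis by the synthase, went from 423 ± 24.0 to 70.0 ± 10.0 (−2.36; −2.35 in BCB), and Atpaf2, which helps to assemble F1, rose by 1.16 and stood at −0.47 with the poly-A controls.

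Assembly factors of the other complexes also went both ways on the deposited scale. So did genes at large: among all genes 33.1% were lower and 37.1% higher in BBB and 31.9% and 39.9% in BCB. Of 5 complex I factors with other names, 2 were lower and 2 higher in BBB, with Ecsit at −1.39 and Nubpl at 0.87 (−0.79 with the poly-A controls). Of 9 factors of complexes II and III, 6 were higher and 3 lower in BBB and 5 and 3 in BCB. Uqcc3, a factor of complex III, went from 264 ± 30.4 to 7.45 ± 7.49 (−3.62; −2.98 in BCB), and Sdhaf2, which adds the flavin to Sdha, rose by 1.11 (−0.51 with the poly-A controls). Of 18 factors of complex IV, 9 were lower and 5 higher in BBB and 7 and 8 in BCB. Cox10, which makes heme for the oxidase, went from 1273 ± 159 to 3787 ± 242 (1.57; 1.56 in BCB) and stood at −0.20 and −0.23 with the poly-A controls, and Cox11, which brings copper, fell by 1.97. Of 15 genes for cytochrome c and coenzyme Q, 6 were lower and 7 higher in BBB and 6 and 5 in BCB, with Coq3, a methyltransferase of coenzyme Q synthesis, at −2.11 and Coq9 at 0.86 (−0.80 with the poly-A controls). ND5, a complex I subunit encoded by mitochondrial DNA and the 1 gene of the mitochondrial genome with a probe set matched here, read 6039 ± 657 in BBB and 11362 ± 1418 with α-amantin (0.91; 0.98 in BCB), and −0.87 and −0.82 with the poly-A controls.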

How the data were processed

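Total RNA of 4 groups of mouse two-cell embryos, with 4 samples in each, was isolated with a Picopure kit and biotin-labelled with an ENZO kit, per the labels' protocols. The deposited values are linear intensities scaled per array by the authors and not quantile normalized, as tested on the values; the software is not given in the sources used here. Arrays give no read depth, so the number of arrays limits the precision. No 2 arrays held identical values, and correlations within a group were 0.976 to 0.990. Members, pathway and marker lists were chosen with earlier results of these data known.

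Tested probe sets had values at or above the 40th percentile of the array on 4 or more arrays (31953 probe sets). Values of log2(intensity + 16) were fitted in limma 3.58.1 under R 4.3.3 with 1 mean for each group (lmFit, eBayes with an intensity trend), with Benjamini-Hochberg adjustment over all probe sets tested and a threshold of 0.05. For each gene the tested probe set of highest mean was used. The fit was tested on simulated data. Array measures and isoform ratios were compared by exact two-sided permutation tests (Python 3.11.15, SciPy 1.17.1, pandas 2.3.3).

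Named genes were the 2 largest rises and the 2 largest falls per class in BBB among called genes with separate arrays, the brightest gene of each complex, complex II genes, Cyc1, isoform families, genes whose probe sets disagreed and, per pathway list, the smallest adjusted p in each direction; Sdhaf3 was named as called by strain. Other names were given after their values were seen. Alternatives were median centring, quantile normalization, scaling to 9 hybridization or 12 poly-A control probe sets, pseudocounts of 1 and 64, no filter or the 60th percentile, averaging the probe sets of each gene, no probe sets of shared sequence, the replicate number as a block, no trend, array weights and leaving out each array. The isoform ratios and the refits of pathway genes were chosen after seeing the data.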

Additional observations from a re-analysis of the deposited data

Results flagged for a closer look

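In 228 groups of 4 arrays (57 named genes in 4 groups each), 8 had a highest or lowest array whose gap to the nearest other, on the log2 scale, was, as a share of the group's range, above Dixon's 95% critical value for 4 samples. Chance gives about 5% of groups, so these are given as values. With the other 3 arrays in brackets, they were Atp5pb on BCB array 4 at 2008.9 (1910.1 to 1925.2), Cox7a2 on BCB array 3 at 2197 (2372 to 2398), Ndufb8 on BCB array 2 at 270.1 (332.4 to 342.5), Sdhc on BBB α-amantin array 3 at 27.4 (79.1 to 89.8) and Cox6b1 on BCB α-amantin array 4 at 304.5 (556.6 to 615.1). Among pathway genes they were Vdac1 on BBB array 2 at 1564.3 (1772.8 to 1802), Slc25a3 on BCB array 4 at 2730.9 (3351.7 to 3386.9) and Cox10 on BCB α-amantin array 4 at 3884.8 (3530.1 to 3579.8).

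The change with α-amantin in Sdhaf3 differed between BCB and BBB embryos by the tested interaction of −3.23 on the log2 scale (limma adjusted p = 3.45e-09). The intensity was high in untreated BCB embryos alone, on 4 of 4 arrays.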

How the results depend on the processing

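Scaling moved the results most. With the poly-A controls, 1 gene was higher and 83 lower in BBB, and 0 higher and 82 lower in BCB, where 1.29% and 80.5% of all genes in BBB and 1.11% and 79.4% in BCB were higher and lower. With the hybridization controls, 6 were higher in BCB, where 16% of all genes were. The complex II median turned to −0.17 (BBB) and −0.41 (BCB) with the hybridization controls and to −1.21 and −1.26 with the poly-A controls. With the poly-A controls these genes also turned, in BBB and BCB: Atp5mpl −0.67 and −0.59, Cox6b2 −0.37 and −0.41, Cox7a2l −1.20 and −1.19, Cox8a −0.76 and −0.93, Ndufa3 −0.56 and −0.91, Ndufaf3 −0.51 and −0.37, Ndufaf4 −0.24 and −0.088, Ndufb8 −1.15 and −1.13, Ndufv2 −0.58 and −0.78, Sdhb −0.52 and −0.84, Sdhd −0.95 and −1.16. The pathway genes that turned there were Vdac1 −0.41 and −0.68, Nubpl −0.79 and −0.90, Sdhaf2 −0.51 and −0.54, Cox10 −0.20 and −0.23, Atpaf2 −0.47 and −0.56, Coq9 −0.80 and −0.49, ND5 −0.87 and −0.82, Nrf1 −0.69 and −0.60. In BCB alone Sdha (−1.60), Sdhc (−1.37) and Cox7a2 (−1.76) turned there too. With the hybridization controls Cox7a2 (−0.74), Cox7a2l (−0.19), Ndufa3 (−0.066), Ndufb8 (−0.14) and Sdha (−0.59) turned in BCB, and Cox7a2 (−0.34) with quantile normalization. With probe sets averaged per gene, Sdha was 0.47 and Nrf1 −0.014 in BBB and Ndufb8 −0.088 in BCB, and without shared probe sets Uqcrq was 0.0071 in BBB. The cause was not tested. Of the falls on the deposited scale, quantile normalization kept 48 of 55 calls in BBB and 45 of 52 in BCB, with Ndufa6 and Ndufaf7 above 0 in BBB.

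When each array was left out in turn, 16 to 20 genes were higher and 50 to 55 lower in BBB, 18 to 21 and 50 to 53 in BCB, and 0 differed by strain. Under the replicate block the counts were 18 higher and 55 lower in BBB and 20 and 52 in BCB. Samples of the same number showed no clear shared deviation (correlations −0.09 to 0.11, over 0.1 in 1 of 24 pairs). The labels do not say whether such samples were collected or processed together, and these correlations cannot exclude it. Falls to near the 40th percentile are limited by background, and their sizes depend on the pseudocount.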
